A study of Mus musculus with 12 samples.

Results

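The strongest narrow H3K27ac intervals of mouse intestinal organoids were 1314 of the 166517 intervals that the SEACR peak caller gave (0.789%). They were chosen by their peak score: an interval had to lie on an autosome, be under 8000 bp wide, and have a mean score over the 12 libraries at or above the 99th percentile of all intervals (0.227) and under 1. Of the 1666 intervals at or above that limit, 11 lay on the X chromosome, 319 were 8000 bp or wider and 28 had a mean of 1 or more, with some counted under more than 1 of these. The mean score chose the members, so their level is a description and no support for anything. The genotype and treatment differences were not part of the rule and were tested, but a mean over all libraries can reach the limit through the groups where an interval is high.

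CUT&RUN, in which a nuclease tethered to an antibody frees the bound chromatin fragments for sequencing, was run with an antibody against histone H3 acetylated at lysine 27 on organoids grown from isolated crypts in Matrigel. The 12 libraries formed 6 groups of 2. Wild type (WT) organoids and Ptger4 knockout (KO) organoids each received vehicle, arachidonic acid (AA) at 25 µM or prostaglandin E2 (PGE2) at 50 nM. The series design text writes the compound as 6,16-dimethyl PGE2, and the labels give the time as day 3 in the sample characteristics and as 6 days in the treatment protocol. All groups share the growth medium with EGF, Noggin, R-spondin, N-acetyl-L-cysteine, B27, N2, the GSK3 inhibitor CHIR-99021 and the ROCK inhibitor Y-27632. How the knockout was made is not in the labels. Neither is the origin of a group's 2 libraries (cultures or animals), so p-values measure only the spread between these libraries, which may be technical.

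H3K27ac is laid down by the acetyltransferases p300 and CBP and marks active promoters and enhancers. In the intestinal epithelium, enhancers carrying it lie at genes of the epithelial cell types, where factors such as HNF4 and CDX2 bind. AA is the fatty acid from which cyclooxygenases and the prostaglandin E synthases make PGE2. EP4, the product of Ptger4, is a PGE2 receptor that couples to cAMP production. A narrow interval is here one under 8000 bp, in contrast to the broad domains over highly active genes. Whether a high score means dense signal is not known, since the scaling of the score is not given.

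Of the members, 6 held a microRNA hairpin of the RefSeq table (GRCm38.p6, the assembly of mm10), with 8 hairpins between them, against 209 of the 1005 hairpins of that table in any interval. Both microRNA clusters of the miR-192, miR-194 and miR-215 group, which are abundant in intestinal epithelium, lay in members, and their mature sequences are shown because 4 of the 8 hairpins belong to them. The member chr1:185306886-185314482, near Iars2, held Mir194-1 and Mir215. The member chr19:6261723-6266019, near Atg2a, held Mir194-2 and Mir192. Capitals mark the seed, bases 2 to 8, by which a microRNA pairs with its targets.
mmu-miR-192-5p: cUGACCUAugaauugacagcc
mmu-miR-215-5p: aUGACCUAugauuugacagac
mmu-miR-194-5p: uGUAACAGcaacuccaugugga
mmu-miR-22-3p: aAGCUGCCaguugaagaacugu
The seed UGACCUA was the same in miR-192-5p, from chromosome 19, and miR-215-5p, from chromosome 1. The 2 hairpins Mir194-1 and Mir194-2 gave the same miR-194-5p with the seed GUAACAG. The miR-22-3p sequence came from Mir22, in the member chr11:75459165-75464072, which also held the start of its host transcript Mir22hg. The remaining 3 hairpins were Mir8112, Mir707 and Mir3968.

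The scores of these microRNA members overlapped between the genotypes. The Iars2 member scored 0.284 ± 0.0371 (SD, n = 6) in WT and 0.221 ± 0.0233 in KO, and its WT libraries ran from 0.236 to 0.323 against 0.181 to 0.253 in KO. The Atg2a member scored 0.266 ± 0.0349 in WT and 0.239 ± 0.0337 in KO. The Mir22 member, nearest to Tlcd2, scored 0.252 ± 0.0487 in WT and 0.220 ± 0.0602 in KO. None of the 3 passed the genotype test described below (limma, Benjamini-Hochberg adjusted p = 0.353, 0.745 and 0.727).

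About as many members held an annotated transcription start as did the next strongest intervals, and more than intervals at large. Of the 1263 members outside chromosome 18, for which the RefSeq table used here gives no starts, 322 (25.5%) held a start, against 3862 of the 14525 intervals from the 90th to the 99th percentile of the score (26.6%) and 10166 of all 160778 intervals (6.32%). Members were wider than intervals at large (median 3750 bp against 1760 bp), and a wider interval can hold more starts, so the shares were also taken by width. Under 2000 bp, 16.1% of 193 members held a start, against 15.5% of the intervals from the 90th to the 99th percentile and 2.62% of all other intervals. From 2000 to under 4000 bp the shares were 25.9% of 501 members, 28.3% and 9.32%, and from 4000 to under 8000 bp 28.3% of 569 members, 30.2% and 18.4%. The high share of starts was thus not particular to the members. The midpoint of 225 members (17.8%) lay within 1 kb of a start, against 5.39% of all intervals.

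**Figure D1:**
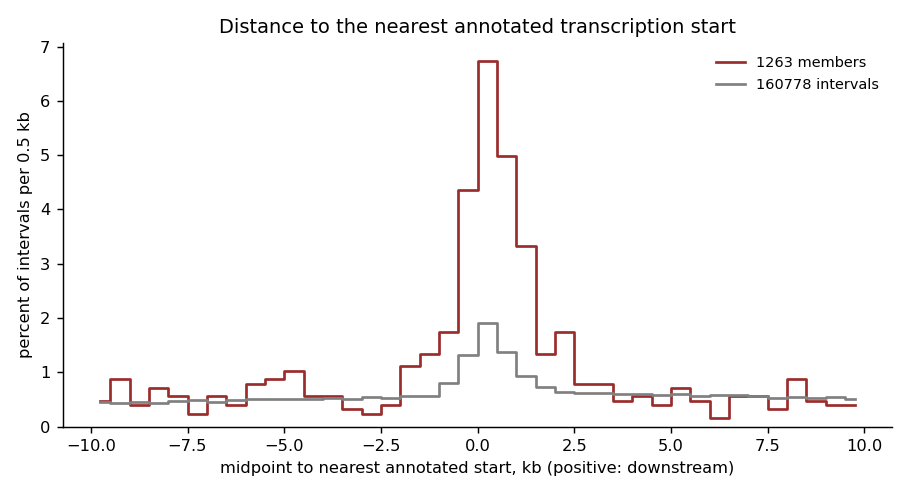
Share of intervals (percent per 0.5 kb, vertical axis) by the distance from their midpoint to the nearest annotated transcription start (kb, horizontal axis; positive values lie downstream), for the 1263 members and the 160778 intervals with a start table. The members rise above all intervals around the start, where 17.8% of them lie within 1 kb against 5.39%.

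The promoters of 4 members are shown: Btaf1 and Bub3, which passed in the genotype test described below, and Fabp2 and Cldn7, an enterocyte gene and a tight junction gene whose starts lay inside members. The Bub3 call depended on the scaling of the scores, as given below. Each is the 250 bases before the start in RefSeq (GRCm38.p6), 5′ to 3′ on the strand of the gene, and capitals mark matches to the motifs searched.
Btaf1 (chr19:36925829-36926078, plus strand): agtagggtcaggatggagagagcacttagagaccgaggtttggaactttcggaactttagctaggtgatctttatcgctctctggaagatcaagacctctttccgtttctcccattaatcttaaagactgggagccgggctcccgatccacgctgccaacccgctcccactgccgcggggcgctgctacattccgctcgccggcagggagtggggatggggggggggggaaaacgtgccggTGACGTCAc
Bub3 (chr7:131560120-131560369, plus strand): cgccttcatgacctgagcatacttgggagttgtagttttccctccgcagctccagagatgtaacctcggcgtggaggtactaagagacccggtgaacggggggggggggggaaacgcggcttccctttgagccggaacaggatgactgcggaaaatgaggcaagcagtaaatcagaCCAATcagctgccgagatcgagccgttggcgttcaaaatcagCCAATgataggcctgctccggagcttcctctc
Fabp2 (chr3:122894822-122895071, plus strand): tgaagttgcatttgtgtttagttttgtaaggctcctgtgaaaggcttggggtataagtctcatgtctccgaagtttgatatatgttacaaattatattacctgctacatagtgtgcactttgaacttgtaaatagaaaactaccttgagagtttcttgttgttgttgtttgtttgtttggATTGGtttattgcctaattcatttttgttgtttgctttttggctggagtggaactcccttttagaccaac
Cldn7 (chr11:69964529-69964778, plus strand): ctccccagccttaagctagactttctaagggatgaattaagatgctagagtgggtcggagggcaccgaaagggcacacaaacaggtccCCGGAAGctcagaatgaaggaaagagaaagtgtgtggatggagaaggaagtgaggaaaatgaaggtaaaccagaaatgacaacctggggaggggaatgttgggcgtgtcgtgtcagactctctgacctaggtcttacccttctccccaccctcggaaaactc
The Btaf1 window held 1 full cAMP response element, TGACGTCA, next to the start. The Bub3 window held 2 CCAAT boxes, the Fabp2 window 1 on the opposite strand (ATTGG) and the Cldn7 window 1 ETS motif, CCGGAAG.

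The 428 starts inside members were compared with the 32851 starts of the table, in windows from 250 bases before to 50 after the start. Each motif was searched as exact letters on both strands, and none of these motifs contains another. The cAMP response element TGACGTCA, the site of CREB, was in 2.34% of the members' windows, 2.76% of the windows in other intervals and 1.79% of all. The AP-1 motif TGANTCA was in 8.18%, 7.16% and 7.81%. The HNF4 motif CAAAGTCCA was in 1.40%, 0.607% and 0.475%, and the TCF motif CTTTGATC in 2.10%, 0.755% and 0.938%; at these shares the members' windows hold few matches, and no test was made. The GC box GGGCGG (44.2%, 49.9% and 35.7%) and the ETS motif CCGGAAG (10.05%, 16.4% and 8.86%) were less frequent in the members' windows than in those of other intervals and more frequent than in all windows. The CCAAT box was in 42.3%, 38.5% and 37.4%, and the TATA box TATAAA in 9.11%, 10.4% and 13.6%. The median ratio of observed to expected CpG was 0.562 in the members' windows, 0.667 in those of other intervals and 0.384 in all, and median GC content was 55.7%, 57.3% and 52.7%.

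Most members scored just above the limit. Their means ran from 0.227 to 0.966 with a median of 0.243, against a median of 0.118 over all intervals: 829 lay under 0.25, 405 from 0.25 to under 0.3, 33 from 0.3 to under 0.4 and 47 at 0.4 or more. The median coefficient of variation over the 12 libraries was 21.0%, against 21.9% in the intervals from the 90th to the 99th percentile and 35.4% over all intervals. The members covered 5.10 Mb of the 376 Mb in all intervals. A gene lay within 50 kb of 1154 members (1009 genes), 783 members (59.6%) touched a gene span, against 65.8% of the intervals from the 90th to the 99th percentile and 52.5% of all intervals, and 152 had another member within 10 kb. Exons and introns were not told apart.

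At the limit, the members just inside were those at Btaf1 (0.226837), Tspan32 (0.226858) and Sh3d19 (0.226870), and just outside were Uck2 (0.226830), Sft2d2 (0.226825) and Ccny (0.226799). Just under a mean of 1 stood Tmem196, a member without a gene at chr17:13588561-13591622 and Zc3h7a (0.960), and just above it Brox (1.03). The widest member, 7954 bp, lay 13973 bp from Ets2, and the narrowest interval removed for its width was 8015 bp.

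The highest means were those at Tmem196 (chr12:120028656-120029032, 377 bp, mean 0.966), the chromosome 17 member without a gene (0.966), Zc3h7a (468 bp, 0.960), Kctd16 (0.957), Vps45 (0.943), Smo (chr6:29747487-29749343, 0.932), Gm39469 (0.910), members without a gene on chromosomes 2 (0.864) and 16 (0.862), and Gm32584 (0.863). Smo encodes the Hedgehog signal transducer and Vps45 a membrane trafficking protein. These 10 belong to the 47 members with a mean of 0.4 or more, a boundary drawn after the values were seen. No interval in repeats or known artefact regions was removed here, and whether these 47 hold such signal was not tested. Those 47 had a median width of 1235 bp against 3812 bp for the other 1267 members, 37 (78.7%) overlapped an interval of the MACS2 caller against 129 (10.2%), 17 (36.2%) had no gene within 50 kb against 143 (11.3%), and 1 of the 44 with a start table held a start (2.27%) against 321 of 1219 (26.3%).

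By nearest gene, members made up the largest share of intervals in the epithelial keratin, junction and cytoskeleton list, of the 21 lists with an interval. Of the 293 intervals nearest to one of its genes, 18 (6.14%) were members, at 13 genes, among them the tight junction genes Cldn3, Cldn7, Ocln and Tjp1, the adhesion gene Epcam with 3 members, the keratin genes Krt7 and Krt18, the laminin gene Lamb3, and Actg1, Actn4 and Plec. Over all 130558 intervals with a gene within 50 kb the share was 0.884%. The fetal-like and regenerative list had 9 of 199 (4.52%), at Anxa1, Areg, Ereg, Il1rn, Krt7, S100a10 and S100a6; Areg and Ereg encode ligands of the EGF receptor. The heat shock and ER stress list had 5 of 82 (6.10%), at Canx, Pdia4, Sqstm1 and Txnrd1. These shares are descriptions with no test, the lists were drawn up with earlier results of these data known, and Krt7 stands in 2 of them. Some of these members lay away from the gene, 40398 bp for S100a10, 15526 bp for an Ereg member and 15969 bp for a Cldn3 member. Others, such as that at S100a6, held the start.

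Among the cell types of the epithelium, enterocyte genes had 6 of 268 intervals (2.24%), among them those at Fabp2, which encodes a fatty acid binding protein, the anion exchanger gene Slc26a3, the sodium proton exchanger gene Slc9a3 and Cyp3a11. Goblet and secretory genes had 3 of 98 (3.06%), at the mucin gene Muc13, Agr2 and Bcas1. Enteroendocrine genes had 1 of 46, at Sct, which encodes secretin, in a member that also held the start of Cdhr5. Stem cell genes had 3 of 313 (0.958%), close to the share of all intervals, with 2 members at Lrig1 and 1 at Ephb2. Paneth genes had 0 of 49 and tuft genes 0 of 79. The Bcas1 member lay 34179 bp from its gene, and the Lrig1 members 13919 and 28776 bp from theirs.

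Intestinal transcription factor genes had 6 of 377 (1.59%), at Hnf4a, Klf5 and Tcf7l2, and Wnt and Hippo genes 8 of 411 (1.95%), at Amotl2, Ctnnb1, Myc, Tcf7l2, Tead1 and Wwc1, with Tcf7l2 in both lists. Genes of cAMP signalling, CREB and prostanoid handling had 5 of 599 (0.835%): 2 at the PGE2 exporter gene Abcc4, and 1 each at the PGE2 degrading enzyme gene Hpgd, the phosphodiesterase gene Pde4d and Creb1. PPAR and fatty acid genes had 1 of 291, at Cpt2, and housekeeping genes 2 of 83, 1 of them at Ywhaz. AP-1 and immediate early genes had 0 of 162 and proliferation genes 0 of 128. For genes of other lineages the counts were fibroblast 0 of 73, immune 0 of 91, endothelial 0 of 125, olfactory receptor 0 of 64 and neuronal 1 of 382, at Cntnap2. At the 0.884% over all intervals with a gene within 50 kb, lists of this size would hold few members. Paneth, tuft, AP-1 and proliferation genes had 0 as well, so these counts do not set other lineages apart. The median score over all intervals of the list was 0.0993 for fibroblast, 0.104 for neuronal, 0.106 for immune, 0.110 for olfactory receptor and 0.123 for endothelial genes, against 0.120 for Paneth, 0.119 for tuft, 0.130 for enterocyte and 0.141 for epithelial keratin genes. The list of microRNA and long non-coding hosts had no interval, since intervals were assigned to protein-coding genes only.

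**Figure D2:**
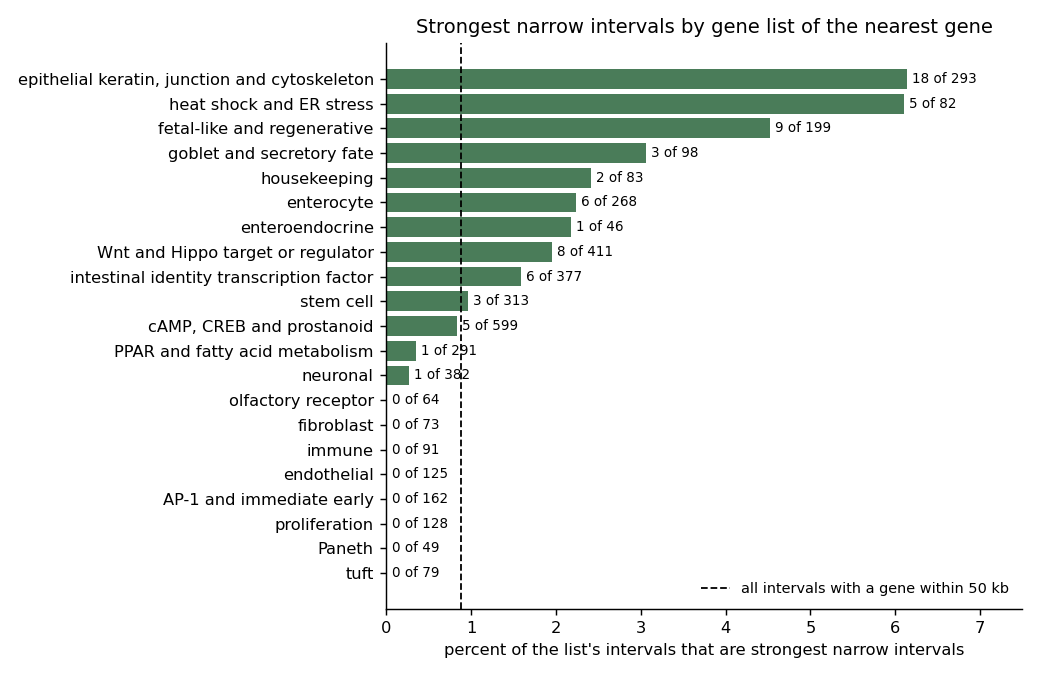
Percent of the intervals nearest to a list's genes that are strongest narrow intervals (horizontal axis), for the 21 lists with an interval, with the counts beside each bar. The dashed line is the share over all intervals with a gene within 50 kb, 0.884%; the epithelial keratin, junction and cytoskeleton list stands highest at 6.14%.

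Etl4 and Proser2 had the most members, 4 each, of 102 and 13 intervals. Of the genes with 3, the rule took Baz2b, Cabcoco1 and Cd38 in alphabetical order. The 3 members at Cd38, which encodes an NAD hydrolase, lay side by side between 43858166 and 43873365 on chromosome 5, with means of 0.340, 0.271 and 0.238, and the last of them held the start. The members at Abcg2, a transporter gene (0.247, coefficient of variation 8.88%), Rex2 (8.89%), Zfp217 (9.65%), Cabcoco1 (9.74%) and the member without a gene on chromosome 2 (9.97%) varied least over the 12 libraries. Those at 9230019H11Rik (64.4%), at chr12:97061263-97062023 without a gene (59.3%), at Gsdma2 (58.0%), at chr13:3036689-3037403 without a gene (56.8%) and at Cdk5rap2 (55.4%) varied most.

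Across libraries, the members' median score was 0.238 and 0.284 with vehicle, 0.282 and 0.278 with AA and 0.271 and 0.259 with PGE2 in WT. In KO it was 0.252 and 0.247 with vehicle, 0.227 and 0.229 with AA, and 0.243 and 0.156 with PGE2. The KO vehicle libraries thus lay between the WT vehicle libraries, both KO AA libraries lay below every WT library, and KO PGE2 replicate 2 stood apart as the lowest. That library was the lowest of the 12 at 1002 of the 1267 members with a mean under 0.4. Its median over all 166517 intervals was also the lowest (0.0941, against 0.112 to 0.122 in the other libraries). Over the 47 members of 0.4 or more it was the highest, at 0.842 against 0.498 to 0.684 elsewhere, and it was the top library in 24 of them.

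**Figure D3:**
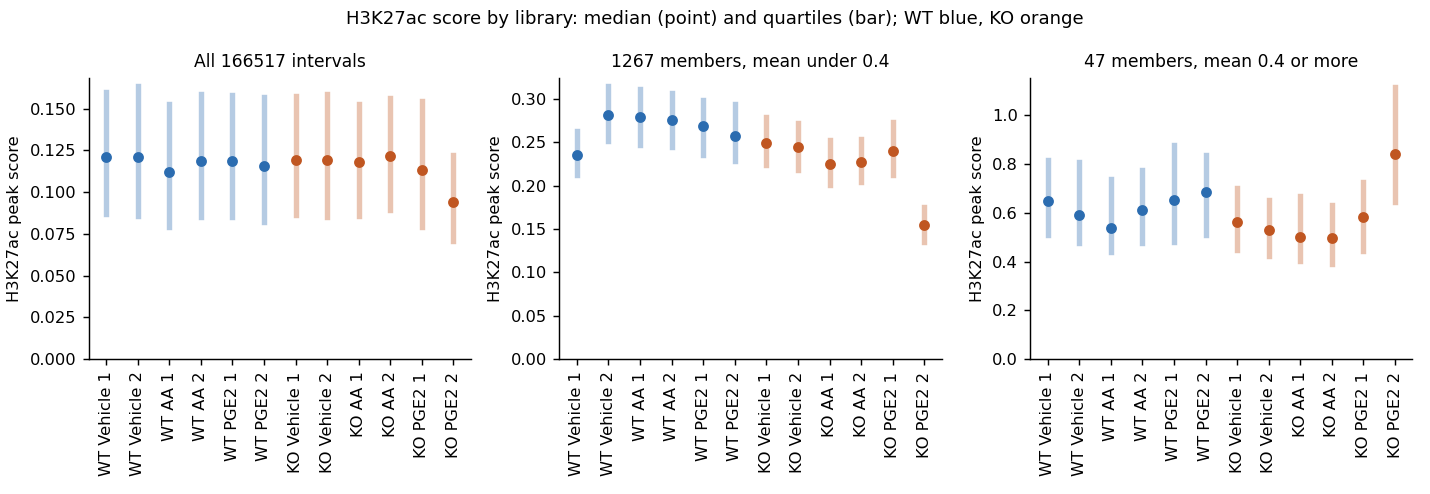
H3K27ac peak score in each of the 12 libraries (vertical axes, each from 0; points are medians over intervals, bars the quartiles; WT blue, KO orange) for all intervals, for the 1267 members with a mean under 0.4 and for the 47 members above it. KO PGE2 replicate 2 is the lowest library in the left and middle panels, with medians of 0.0941 and 0.155, and the highest in the right panel, at 0.842.

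The genotype comparison asked whether H3K27ac at these intervals differs without EP4, averaged over the 3 treatments. Ptger4 itself had no member among its 9 intervals. Its strongest interval, chr15:5243427-5245375, scored 0.198 ± 0.0307 (SD, n = 6) in WT and 0.161 ± 0.0693 in KO (limma adjusted p = 0.618), and an acetylation score does not test whether the gene was deleted. All 1314 members passed the filter on low scores and were tested with all 166471 intervals that passed it.

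More members passed as lower than as higher in KO. By limma with Benjamini-Hochberg adjustment over all intervals, 15 members (1.14%) passed at 0.05, 3 higher and 12 lower in KO, against 0.0427% of all tested intervals (0.0114% higher and 0.0312% lower). Of the 15, 5 had a mean at or above the score limit in both genotypes, and 4 had all 6 group means at or above it: Zc3h7a, Filip1l and the members without a gene on chromosomes 4 and 11. Zc3h7a, Filip1l and the chromosome 4 member are the 3 calls among the 47 members with a mean of 0.4 or more. Whether those 47 hold signal of repeats or artefact regions was not tested, as given above. The other 10 reached the limit only through the genotype in which they were higher. For Btaf1 and the member on chromosome 13 this was KO. For the member on chromosome 12 and those at Nkx2-6, Tead1, Map3k2, Septin5, Igfbp6, Mbnl1 and Bub3 it was WT. The tests of these 10 are thus not free of how the members were chosen. At an unadjusted p under 0.05 there were 594 members (45.2%) against 9.11% of all intervals. Of all 1314 members, 559 had both genotype means at or above the limit, and 154 had all 6 group means there. Members that reached it through 1 genotype only are counted in these shares. The unadjusted share among the 559 alone was not taken. All intervals varied more over the 12 libraries than members did (median coefficient of variation 35.4% against 21.0%). Shares passing among them, here and below, are thus not those of intervals like the members. In the intervals from the 90th to the 99th percentile, which varied about as much (21.9%), the share passing was not taken. The median log2 difference of the members was -0.22, with 137 of 1314 higher in KO, against -0.046 over all intervals. The median went down with the strength of the interval: it was 0.0065 below the median score, -0.067 from the 50th to the 90th percentile, -0.15 from the 90th to the 99th, and -0.22 in the members. The direction depended on the scaling. The members' median was -0.18 after centring on library medians, where 5 higher and 13 lower passed, against 28 and 54 of all 166471 intervals. It was -0.12 after quantile normalization (7 and 12, against 33 and 40). After cyclic loess, which sets strong and weak intervals level between libraries, it was 0.0030 (11 and 2, against 46 and 22). The turn to more higher than lower calls after cyclic loess was thus seen over all intervals too.

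Within the treatments, the members' median difference between KO and WT was -0.063 with vehicle, -0.24 with AA and -0.34 with PGE2, against -0.054, -0.13 and -0.27 in the intervals from the 90th to the 99th percentile and -0.024, 0.012 and -0.13 over all intervals. Single libraries moved the vehicle and PGE2 values: with vehicle the median was -0.17 without WT vehicle replicate 1 and 0.037 without WT vehicle replicate 2, and with PGE2 it was -0.59 without KO PGE2 replicate 1 and -0.097 without KO PGE2 replicate 2. After cyclic loess the 3 medians were -0.0051, 0.0068 and 0.013. Within these treatments 0, 1 and 2 members passed in limma, each with 2 libraries against 2, against 0.000601%, 0.0018% and 0.00481% of all intervals. At an unadjusted p under 0.05 there were 77, 311 and 532 members, which is 5.86%, 23.7% and 40.5% of them, against 4.55%, 5.5% and 10.6% of all intervals. Without KO PGE2 replicate 2 the members' median over all treatments was -0.13, beside -0.020 over all intervals. Without KO PGE2 replicate 1, when replicate 2 alone stood for its group, it was -0.29, beside -0.078 over all intervals. Without any other single library 2 to 8 passed, with the fewest when KO AA replicate 2 was left out. With the vehicle and AA libraries alone 12 members passed (2 higher and 10 lower), against 11 higher and 18 lower of all 165987 intervals. Of these 12 members, 6 were among the 15. How far KO PGE2 replicate 2 carries the members' median was not tested beyond these values.

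**Figure D4:**
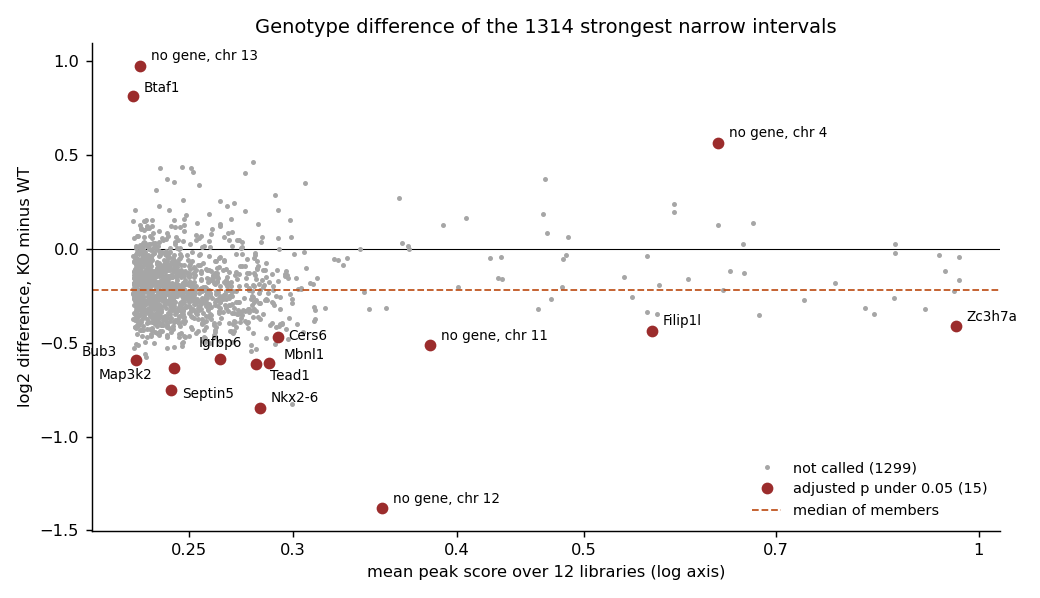
Log2 difference between KO and WT (vertical axis) against the mean peak score over 12 libraries (horizontal log axis) for the 1314 members; red points passed at an adjusted p under 0.05 (limma) and carry the nearest gene, and the dashed line is the members' median of -0.22. Of the 15 red points, 12 lie below 0 and 3 above.

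The member with the smallest p had no gene within 50 kb. It lay at chr12:97061263-97062023 and scored from 0.382 to 0.710 in the 6 WT libraries (median 0.511) and from 0.0563 to 0.308 in the 6 KO libraries (median 0.176). The genotypes did not overlap, and the log2 difference was -1.38 ± 0.15 (SE; adjusted p = 0.000145 by limma). Next to it in size among the lower members was one 9349 bp from Nkx2-6, a homeobox transcription factor gene (chr14:69161992-69162453). It scored from 0.263 to 0.569 in WT and from 0.122 to 0.219 in KO, again without overlap (-0.85 ± 0.12, adjusted p = 0.00367). Both passed in all 21 alternatives other than dropping the mean-variance trend. Without the trend, their adjusted p was 0.131 and 0.388 and no member passed. Both had a KO mean below the score limit.

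The member inside Tead1, a transcription factor gene of the Hippo pathway and a partner of YAP (chr7:112704709-112706988), scored 0.350 ± 0.0501 in WT and 0.213 ± 0.0590 in KO (-0.61 ± 0.11, adjusted p = 0.0360 by limma). Its WT libraries ran from 0.280 to 0.394 and its KO libraries from 0.104 to 0.269, with KO PGE2 replicate 2 the lowest. Near Map3k2, a MAP kinase cascade gene (chr18:32151466-32155170), WT ran from 0.273 to 0.351 and KO from 0.127 to 0.242. Near Septin5, a septin gene (chr16:18648872-18650180), WT ran from 0.236 to 0.393 and KO from 0.0805 to 0.230, with KO vehicle replicate 2 the lowest. In these 3 members the genotypes did not overlap. At Igfbp6, which encodes an insulin-like growth factor binding protein (chr15:102148399-102151591), they did: WT ran from 0.263 to 0.394 and KO from 0.134 to 0.273. Log2 differences were -0.63 ± 0.11 for Map3k2, -0.75 ± 0.14 for Septin5 and -0.59 ± 0.11 for Igfbp6, with adjusted p = 0.0159, 0.0346 and 0.0346.

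Mbnl1 encodes a splicing factor, and its member (chr3:60498145-60501109) scored from 0.280 to 0.415 in WT and from 0.161 to 0.264 in KO (-0.61 ± 0.10, adjusted p = 0.0145). Bub3 encodes a protein of the spindle checkpoint, and the member over its start (chr7:131560242-131561463) scored from 0.226 to 0.342 in WT and from 0.133 to 0.217 in KO (-0.59 ± 0.11, adjusted p = 0.0300). Cers6 encodes a ceramide synthase (chr2:68899222-68903066), with WT from 0.316 to 0.393 and KO from 0.168 to 0.268 (-0.47 ± 0.09, adjusted p = 0.0487). The 6 libraries of each genotype did not overlap in these 3 members. The zinc finger gene Zc3h7a (-0.41 ± 0.07, adjusted p = 0.00814), Filip1l, which encodes a filamin A interacting protein-like protein (-0.44 ± 0.08, adjusted p = 0.0202), and a member without a gene at chr11:109010770-109012718 (-0.51 ± 0.10, adjusted p = 0.0479) were also lower, with overlapping genotypes. At Filip1l the 2 KO PGE2 libraries scored 0.6003 and 0.685, within the WT range of 0.488 to 0.759, and within PGE2 the difference was 0.02. After cyclic loess, of the 12 lower members only the chromosome 12 member and that near Nkx2-6 still passed.

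The 3 higher members did not overlap between the genotypes. The member over the Btaf1 start (chr19:36922185-36929514), whose promoter is shown above, scored from 0.101 to 0.173 in WT (median 0.153) and from 0.192 to 0.369 in KO (median 0.327), a log2 difference of 0.82 ± 0.13 (adjusted p = 0.00750 by limma). Btaf1 encodes an ATPase that removes the TATA-binding protein from DNA. The difference was 1.17 with vehicle, 0.68 with AA and 0.60 with PGE2. Within 2 Mb of it, 16 of the 394 tested intervals were called higher in KO, of 19 in the genome, and 1 was called lower; of the 4 members there, only that at Btaf1 was higher. The other 2 higher members had no gene within 50 kb. That at chr13:3036689-3037403 scored from 0.0519 to 0.181 in WT and from 0.223 to 0.485 in KO, where the 2 PGE2 libraries were the highest (0.98 ± 0.14, adjusted p = 0.00417). That at chr4:64497722-64498068 scored from 0.451 to 0.542 in WT and from 0.556 to 1.44 in KO (0.57 ± 0.09, adjusted p = 0.00731); KO PGE2 replicate 2 gave the 1.44, and without that library it still passed (adjusted p = 9.94e-05). With the vehicle and AA libraries alone, the members on chromosomes 13 and 4 did not pass (adjusted p = 0.255 and 0.172) and Btaf1 did (0.00214). All 3 passed under each of the 3 scalings. The members at Btaf1 and on chromosome 13 had every WT library below the score limit. Both were thus members only through their KO libraries.

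**Figure D5:**
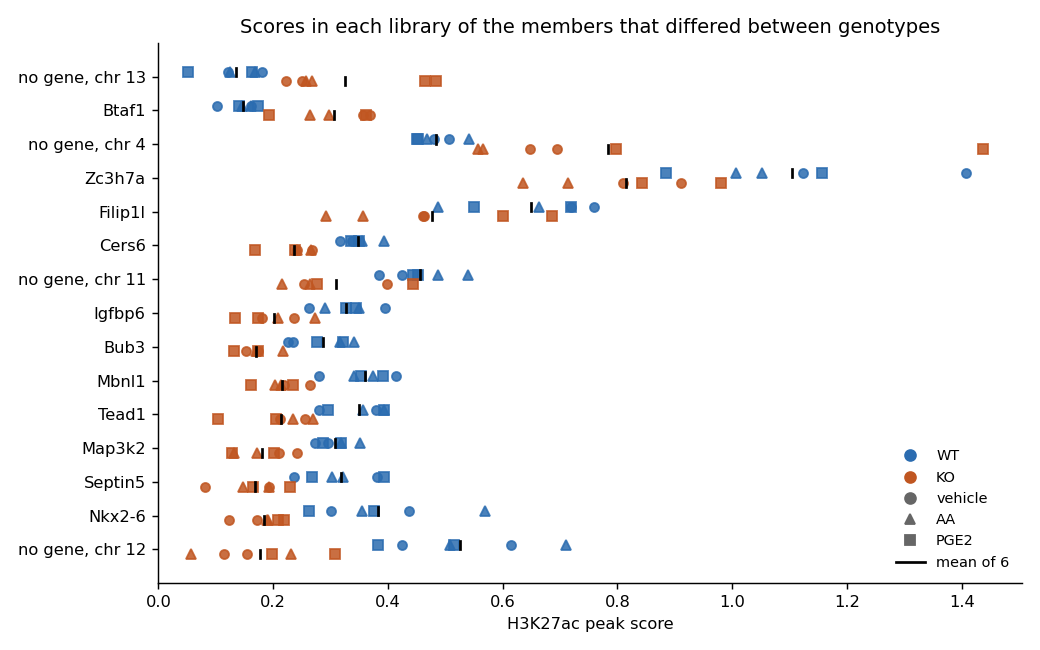
Peak score (horizontal axis) in each of the 12 libraries for the 15 members that passed in the genotype comparison, WT in blue and KO in orange, with vehicle as circles, AA as triangles and PGE2 as squares; black lines are means of 6 libraries. The 6 libraries of a genotype do not overlap in 8 of the 12 members that were lower in KO and in all 3 that were higher.

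Over all members, the 6 WT libraries stood wholly above the 6 KO libraries in 47 (3.58%), against 0.559% of all tested intervals, and wholly below them in 4 (0.304%), against 0.125%. Members that reached the score limit through 1 genotype only are again counted. Position made little difference, which was not tested: among the members with a mean under 0.4 outside chromosome 18, the median difference was -0.22 in the 321 that held a start, -0.22 in the 476 inside a gene span without a start and -0.22 in the 422 outside gene spans without a start. In the 47 members of 0.4 or more it was -0.15, with 3 passing.

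By gene list, members were mostly lower in KO, as were members at large (1177 of 1314, median -0.22), and of those in the lists only Tead1 passed. In the epithelial keratin, junction and cytoskeleton list 17 of 18 were lower (median log2 difference -0.28), in the fetal-like list 9 of 9 (-0.29), in the enterocyte list 6 of 6 (-0.19) and in the heat shock list 5 of 5 (-0.16). The counts were 4 of 6 for intestinal transcription factor genes, 6 of 8 for Wnt and Hippo genes and 2 of 3 for goblet genes. After cyclic loess the keratin, fetal-like, enterocyte and heat shock counts were 12 of 18, 7 of 9, 2 of 6 and 2 of 5. For intestinal transcription factor, Wnt and Hippo, and goblet genes they were 2 of 6, 3 of 8 and 2 of 3. The direction thus turned for the enterocyte, heat shock, intestinal transcription factor, and Wnt and Hippo members. After this scaling 666 of all 1314 members were higher in KO, so such a turn is not particular to these lists. S100a6, which encodes a calcium binding protein, scored 0.324 ± 0.0554 (SD, n = 6) in WT and 0.216 ± 0.0506 in KO (-0.49 ± 0.11, limma adjusted p = 0.0968), and the higher of the 2 members at the tight junction gene Ocln 0.343 ± 0.0638 and 0.220 ± 0.0518 (-0.53 ± 0.12, adjusted p = 0.117). The higher of the 2 Ereg members scored 0.304 ± 0.0475 and 0.210 ± 0.0283, without overlap (adjusted p = 0.158). Of the cAMP and prostanoid members, Pde4d scored 0.298 ± 0.0210 and 0.215 ± 0.0446, also without overlap (-0.40 ± 0.10, adjusted p = 0.189), whereas Creb1 (0.229 ± 0.0501 and 0.240 ± 0.0511) and Hpgd (0.229 ± 0.0224 and 0.226 ± 0.0534) differed by less than the spread between libraries. Of the identity factors, the higher of the 2 Klf5 members scored 0.282 ± 0.0243 and 0.205 ± 0.0525 and Hnf4a 0.266 ± 0.0248 and 0.196 ± 0.0374, neither passing (adjusted p = 0.189 and 0.251).

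The treatment comparisons, which share their vehicle libraries within a genotype, gave no member that passed. With AA in WT, 0 members and 0% of all intervals passed in limma. At an unadjusted p under 0.05 there were 82 members (6.24%), against 4.56% of all intervals, and the members' median was 0.085. That median was -0.028 without WT vehicle replicate 1, 0.19 without WT vehicle replicate 2 and 0.0036 after cyclic loess. The smallest p belonged to Slc18a1, a vesicular monoamine transporter gene (0.335 ± 0.0410 against 0.198 ± 0.00991 with vehicle; SD, n = 2), and Gm525 among the higher members, and to the muscle troponin gene Tnni1 (0.166 ± 0.000957 and 0.290 ± 0.00371) and the Wnt secretion gene Wls among the lower, each with adjusted p = 1.00.

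With PGE2 in WT, 0 members and 0% of all intervals passed, and 99 members (7.53%) had an unadjusted p under 0.05 in limma, against 5.8% of all intervals. The median was 0.021, and it was -0.078 without WT vehicle replicate 1, 0.12 without WT vehicle replicate 2 and -0.0055 after quantile normalization. The member over the start of Mrps14, a mitochondrial ribosomal protein gene, scored 0.360 and 0.353 with PGE2 and 0.202 and 0.154 with vehicle (log2 change 0.82 ± 0.19, adjusted p = 0.713 by limma). The member 44414 bp from Myc scored 0.169 and 0.158 with PGE2 and 0.283 and 0.335 with vehicle, and that in Maml3, a Notch coactivator gene, 0.179 and 0.206 against 0.336 and 0.374 (adjusted p = 0.713 and 0.750).

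With AA in KO, 0 members and 0% of all intervals passed, and 71 members (5.40%) had an unadjusted p under 0.05 in limma, against 3.74%. The median was -0.097, beside -0.075 in the intervals from the 90th to the 99th percentile, and it was -0.028 after quantile normalization and 0.012 after cyclic loess. The zinc transporter gene Slc39a1 scored 0.151 and 0.135 with AA and 0.366 and 0.226 with vehicle (-0.79 ± 0.19), and Smo 0.929 and 0.951 against 0.675 and 0.631 (0.49 ± 0.12), both with adjusted p = 1.00.

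With PGE2 in KO, 0 members and 0% of all intervals passed in limma, and 364 members (27.7%) had an unadjusted p under 0.05, against 8.68% of all intervals. The members' median was -0.26, beside -0.25 in the intervals from the 90th to the 99th percentile and -0.15 over all intervals, and it was -0.027 without KO PGE2 replicate 2. After centring on library medians, which moved the median of all intervals to -0.013, it was -0.13, after quantile normalization -0.20 and after cyclic loess 0.011. Smo scored 1.20 and 1.15 with PGE2 and 0.675 and 0.631 with vehicle, the smallest p among the members (0.80 ± 0.12, adjusted p = 0.0561 by limma). The wider of the 2 members near 9230019H11Rik shared this adjusted p, at 0.609 and 1.15 with PGE2 against 0.333 and 0.365, with replicate 2 the higher. Ptpn3, a tyrosine phosphatase gene, scored 0.116 and 0.111 against 0.364 and 0.273 (-1.12 ± 0.23, adjusted p = 0.272). The 47 members of 0.4 or more went the other way from the rest, with a median of 0.18 (36 of 47 higher) beside -0.27 for the other 1267. Without KO PGE2 replicate 2 the 47 had a median of 0.070, and after quantile normalization -0.11.

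Whether AA or PGE2 acted differently in the 2 genotypes was tested as an interaction. For AA, 0 members and 0% of all intervals passed in limma, with 111 members (8.45%) at an unadjusted p under 0.05 against 4.14%, and a median of -0.18. That median was -0.077 without WT vehicle replicate 1 and -0.28 without WT vehicle replicate 2, and -0.095 after quantile normalization and 0.0010 after cyclic loess. Smo (0.79 ± 0.17), where AA libraries were below vehicle in WT on average and above it in KO, and Armc9 (-1.10 ± 0.29) had the smallest p among the members with a gene in each direction, with adjusted p = 1.00. For PGE2, 0 members and 0% passed, with 240 members (18.3%) at an unadjusted p under 0.05 against 6.42%. The median was -0.27, beside -0.22 in the intervals from the 90th to the 99th percentile, and it was -0.043 without KO PGE2 replicate 2. At Mrps14 the KO PGE2 libraries scored 0.136 and 0.139, below the KO vehicle libraries at 0.182 and 0.239, while PGE2 libraries stood above vehicle in WT (-1.26 ± 0.27, adjusted p = 0.563 by limma). Near Copb1, a coatomer gene, they scored 0.160 and 0.183 against 0.264 and 0.346 with vehicle, and the WT libraries 0.370 and 0.364 against 0.236 and 0.280 (-1.09 ± 0.25, adjusted p = 0.589).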

How the data were processed

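H3K27ac was measured by CUT&RUN in 12 libraries of mouse intestinal organoids. The deposited values are a peak score per interval and library, a signal that is never negative; per the submitters' processing notes the intervals came from SEACR and MACS2 on mm10. For the aligner, the caller settings and how the score was scaled, the record is not given in the sources used here. Depth is unknown, so no counting intervals are given. Labels gave each library its group; names with EP4KO were matched to the Ptger4 KO titles.

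Scores were analysed as log2(score + 0.0579), the pseudocount being the 10th percentile of the non-zero scores, so folds of low intervals are understated. Intervals above it in at least 2 libraries were tested: all 1314 members among 166471. The 12 libraries were modelled as 6 groups with limma 3.58.1 in R 4.3.3 (lmFit, eBayes with a trend; 6 residual and 20.1 prior degrees of freedom), two-sided, with Benjamini-Hochberg adjustment over all tested intervals for each of 7 comparisons and a threshold of 0.05. The fit was also run on simulated independent normal values without an outlying library, which cannot show how such a library affects it. Errors are SE for log2 differences and SD for scores.

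An interval was assigned to the nearest of 21900 protein-coding gene spans (RefSeq, GRCm38.p6) within 50 kb. Starts came from 32851 promoter windows of that assembly, which hold none on chromosome 18; 1683 of 1683 overlapping windows on opposite strands matched after reverse complement. All 450 symbols of the 22 gene lists were found in the reference.

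The members, lists and tests were chosen with earlier results of these data known. Named members are the 10 with the highest mean, up to 12 called members with a gene in each direction between genotypes (those without a gene are also given), for the other comparisons the 2 with the smallest p in each direction, up to 3 per gene list by mean, those at the rule's limits, the 5 least and 5 most variable, those of the 5 genes with most members, and those with a microRNA hairpin; not all are described, and some genes of the lists are not reported here. Genes beyond these, such as Hpgd and Hnf4a, were picked from the lists after their values were seen. Alternatives were 3 scalings, the filter, pseudocounts 4 times smaller and larger, no trend, library weights, a replicate block, leaving out each library, and other limits for the members.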

Additional observations from a re-analysis of the deposited data

Results flagged for a closer look

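In 5 results, KO PGE2 replicate 2 stood apart from the other 5 KO libraries: its gap to the nearest of them, as a share of the range of the 6, was above Dixon's 95% critical value for 6 samples. Of 36 groups of 6 examined, chance would give such a gap in about 1 in 20. The library was low in the median score of all members (0.156, share of the range 0.745) and of all intervals (0.0941, share 0.688), and high in the median of the members with a mean of 0.4 or more (0.842, share 0.754). It was also low in the member at Cers6 (0.168, share 0.692) and high in the member without a gene on chromosome 4 (1.44, share 0.726).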

How the results depend on the processing

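In the genotype comparison, 15 members passed. The count was 0 with no trend, 4 among the members whose lowest group mean reached the limit, 0 within vehicle, 1 within AA and 2 within PGE2, and 2 to 356 when a library was left out, lowest without KO AA replicate 2 and highest without KO PGE2 replicate 1. It was 14 with the replicate block and 19, 18 and 13 after quantile normalization, centring and cyclic loess, of which 14, 15 and 5 were among the 15. In limma 0 members passed for PGE2 in KO, but 1 did after quantile normalization, centring, cyclic loess or library weights, 2 with the larger pseudocount, 2 with the replicate block, and 0 to 67 when a library was left out (67 without KO PGE2 replicate 1, 1 without either WT AA library). Leaving out a library gave 0 to 1 for AA in WT (1 without KO PGE2 replicate 1), 0 to 1 for the AA interaction (1 without either KO PGE2 library) and 0 to 14 for the PGE2 interaction (14 without KO PGE2 replicate 1); no alternative gave a call for PGE2 in WT or AA in KO. Over all tested intervals, same-numbered libraries showed no shared deviation (correlations from -0.024 to 0.0097 over 15 pairs of groups). This cannot show whether they share a culture, animal or day, which the labels do not give. The block is given here only, and it changed no other count by over 1.5 times. Filip1l within PGE2 differed by 0.024, a reversed sign. Of the other alternative values of single members, 683 kept direction and call, 183 no longer passed and 12 newly passed. The counts with a library left out are of members alone, without the share over all intervals, so they show nothing particular to the members. The cause of these changes was not tested. Depth is unknown and each group has 2 libraries, which limits the precision.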
